A study of Mus musculus with 9 samples.

Results

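The values described here are those of 10 genes of the ATF4 stress response, serine synthesis and one-carbon metabolism in mouse left ventricle: Gdf15, Asns, Psat1, Phgdh, Mthfd2, Shmt2, Atf4, Atf5, Ddit3 and Trib3. They were found by symbol among the 20634 genes of the deposited tables, and all 10 were among the 15549 genes tested. The genes were proposed with these knockout and wild-type values already known, so the genotype comparisons of the 10 are a description and support nothing by themselves. Phgdh reached the count filter in 5 of 5 KO libraries but in 1 of 4 WT libraries; the other 9 genes reached it in every library.

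The RNA came from left ventricles of 6-month-old C57BL/6 mice that either lacked delta-sarcoglycan (KO) or were wild type (WT). Delta-sarcoglycan, encoded by Sgcd, is a membrane protein of the complex that links dystrophin to the cell surface, and its loss causes muscular dystrophy with cardiomyopathy. From weaning, mice of each genotype drank water with ifetroban, which blocks the thromboxane-prostanoid (TP) receptor, at 25 mg per kg per day, or plain water (vehicle), and all were given running wheels at intervals to bring on the cardiomyopathy. The groups were KO ifetroban (3 libraries), KO vehicle (2), WT ifetroban (2) and WT vehicle (2). The labels do not say that each library came from a separate animal, so p-values measure only the spread between these libraries, which may be technical.

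Each library held 21510263 to 30182955 counts. KO ifetroban replicate 1 is ifetroban by title and source name but vehicle by its treatment entry, and it was analysed as ifetroban. Sgcd itself had 7.30 to 13.3 CPM (counts scaled for library size with TMM factors) in KO libraries and 8.36 to 23.7 CPM in WT libraries. The library labelled WT vehicle replicate 1 held the 8.36 CPM, within the KO range, and the other 3 WT libraries held at least 20.9 CPM; the exons removed by the deletion were not given in the sources used here. Libraries also fell into 2 sets by how each gene's log2 CPM, relative to its mean over the 9 libraries, varied with transcript length. The Spearman correlation, called the length slope below, was -0.52 to -0.40 in 4 libraries (KO ifetroban 1, both KO vehicle and WT vehicle 1). It was 0.38 to 0.43 in the other 5, and its sign is relative to the other libraries.

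The integrated stress response begins with kinases that phosphorylate eIF2alpha, which slows general translation while raising translation of the transcription factor ATF4. ATF4 then switches on genes for amino acid synthesis and transport, among them the serine pathway enzymes, asparagine synthetase and the mitochondrial folate enzymes, together with DDIT3 (CHOP) and TRIB3. In muscle with failing mitochondria the same program is known to include the secreted hormones GDF15 and FGF21. Because ATF4 and ATF5 are controlled in large part through translation, their mRNA level is not a measure of their protein.

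The upstream sequences of 2 of the genes are shown because Gdf15 had the largest log2 fold change of the 10 over both treatments and Asns is the classic gene with an ATF4 composite element near its start. Each run is the 250 bases directly before the RefSeq start of the gene, build GRCm38.p6, on the minus strand, at chr8:70632457-70632706 for Gdf15 and chr6:7693210-7693459 for Asns. Capitals mark a match to TGATGNAA, one spelling of the C/EBP-ATF composite element.
Gdf15: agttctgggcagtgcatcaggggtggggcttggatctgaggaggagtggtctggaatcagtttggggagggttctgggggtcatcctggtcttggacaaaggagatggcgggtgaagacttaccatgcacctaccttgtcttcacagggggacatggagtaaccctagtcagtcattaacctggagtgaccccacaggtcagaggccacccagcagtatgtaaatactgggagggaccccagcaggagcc
Asns: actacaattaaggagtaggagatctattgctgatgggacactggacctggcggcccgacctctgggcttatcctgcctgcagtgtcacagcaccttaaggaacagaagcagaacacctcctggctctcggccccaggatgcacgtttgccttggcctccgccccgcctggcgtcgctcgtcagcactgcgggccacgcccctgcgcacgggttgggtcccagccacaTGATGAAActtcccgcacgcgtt
The match in Asns lay 23 to 16 bases before the RefSeq start. The Asns gene as counted begins at 6:7693254, farther out than the RefSeq start, so the match lies inside the counted gene. Windows of 250 bases before to 50 bases after a start were searched on both strands for all 10 genes, in 13 windows, and 2 genes held a match: Asns, and Trib3 on the other strand at bases 14 to 21 after the start. Over all RefSeq windows of this length 1304 of 32851, or 3.97%, held one, and over all genes 1219 of 27025, or 4.51%, did. A match describes letters only, and its absence from the other 8 genes says that these letters were not in these windows.

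Per kb of transcript, the order of mean levels over the 9 libraries was Atf5 (34.3 CPM per kb), Atf4 (28.7), Shmt2 (14.8), Ddit3 (14.3), Gdf15 (1.98), Mthfd2 (1.84), Trib3 (1.57), Psat1 (1.51), Asns (1.20) and Phgdh (0.265). Neighbours from Gdf15 down to Asns differed by less than the larger of their SDs, as did Shmt2 and Ddit3. The stress transcription factors and Shmt2 thus formed the abundant end, and the inducible enzymes and the hormone the scarce end.

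**Figure D1:**
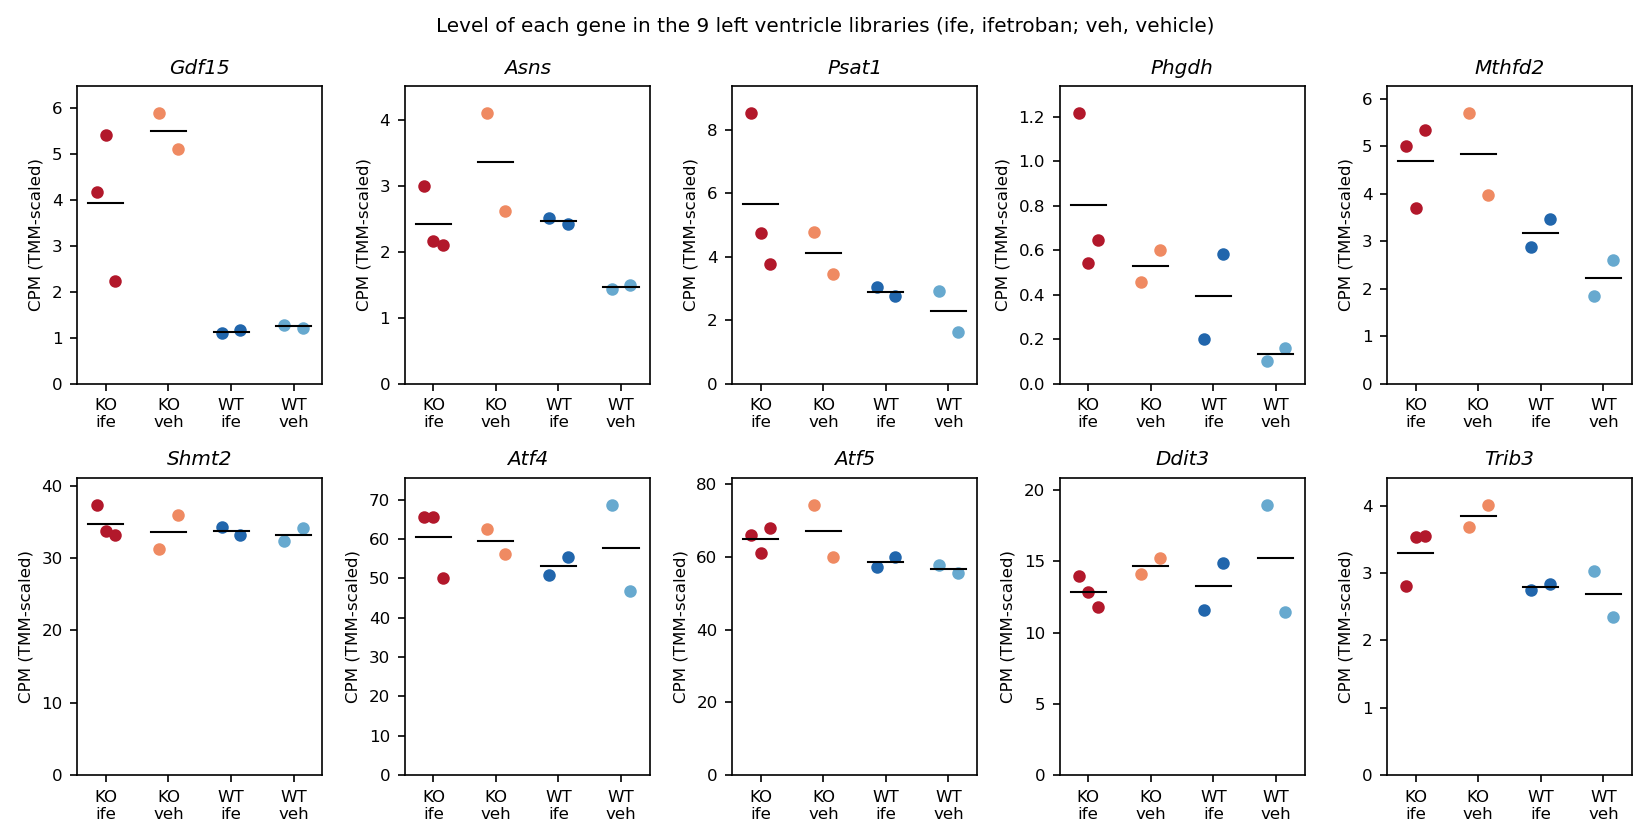
CPM (library-scaled counts; linear axes from 0) of each of the 10 genes in every library, by group, with points for libraries and lines for group means. Gdf15 sits at 2.22 to 5.88 CPM in the 5 KO libraries and at 1.09 to 1.28 CPM in the 4 WT libraries, while Shmt2 lies between 31.3 and 37.4 CPM throughout.

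Gdf15 (8:70629393-70632456, minus strand, mm10) encodes a secreted stress hormone of the TGF-beta superfamily that acts on the brainstem receptor GFRAL. Its level was 4.17, 5.40 and 2.22 CPM in KO ifetroban ventricles and 5.88 and 5.10 CPM in KO vehicle ventricles, against 1.09 and 1.17 CPM in WT ifetroban ventricles and 1.28 and 1.22 CPM in WT vehicle ventricles. Every KO library lay above every WT library, and the WT values sat within a narrow band while the KO values were spread, with KO ifetroban replicate 3 the lowest of them. Whether the spread differed between genotypes was not tested. Over both treatments Gdf15 averaged 4.55 ± 1.45 CPM in KO ventricles (SD, n = 5) and 1.19 ± 0.081 CPM in WT ventricles (SD, n = 4). The log2 fold change was 1.96 ± 0.26 (SE), a 3.89-fold difference, with an adjusted p of 0.00689 (edgeR quasi-likelihood test, Benjamini-Hochberg over all tested genes). These values rested on 55 to 170 counts per KO library and 25 to 30 counts per WT library.

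Within each treatment the Gdf15 difference had the same sign. Under vehicle the log2 fold change of KO over WT was 2.13 ± 0.39 (edgeR adjusted p 0.142), and under ifetroban it was 1.80 ± 0.37 (edgeR adjusted p 0.110), neither past the threshold of 0.05 with 2 or 3 libraries a group. Without KO ifetroban replicate 3, the lowest KO library, both passed, at edgeR adjusted p 0.0323 under vehicle and 0.0354 under ifetroban. Without any 1 of the other 8 libraries neither passed, with edgeR adjusted p up to 0.747 under vehicle and 0.754 under ifetroban. In the 4 libraries of negative length slope Gdf15 had 4.17 to 5.88 CPM in 3 KO libraries and 1.28 CPM in 1 WT library, and in the 5 of positive slope it had 2.22 to 5.40 CPM in 2 KO libraries and 1.09 to 1.22 CPM in 3 WT libraries. With the slope set as a term the log2 fold change over both treatments was 1.91 (edgeR adjusted p 0.00707). Without KO ifetroban replicate 1 it was 1.95, and without WT vehicle replicate 1 also 1.95.

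Among the 10 genes, Gdf15 alone passed the threshold over both treatments by edgeR, where 2.33% of all tested genes passed; DESeq2 called 3 of the 10, and 5.77% of all genes. A further 4 genes, Psat1, Phgdh, Mthfd2 and Trib3, had an unadjusted p under 0.05, as did 16.1% of all genes. In 3 of the 10 genes (Gdf15, Psat1 and Mthfd2) every KO library lay above every WT library, as in 4.62% of all tested genes. The median log2 fold change of the 10 was 0.44, with 9 above 0, against a median of -0.02 over all tested genes, of which 47.0% were above 0. Since these genes were chosen on these values, nothing is read from the counts.

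The serine pathway branches from glycolysis and its first enzyme, phosphoglycerate dehydrogenase, is encoded by Phgdh (3:98313170-98339990). Phgdh was close to the detection limit, at 1.22, 0.540 and 0.646 CPM in KO ifetroban ventricles and 0.456 and 0.602 CPM in KO vehicle ventricles, against 0.202 and 0.583 CPM in WT ifetroban ventricles and 0.103 and 0.162 CPM in WT vehicle ventricles. The genotypes overlapped through 1 WT ifetroban library. The log2 fold change was 1.33 ± 0.45 (edgeR adjusted p 0.172), resting on 2.19 to 25.6 expected counts a library. It was 1.12 without KO ifetroban replicate 1, 1.20 without WT vehicle replicate 1 and 0.98 with the slope set as a term. The counts were fractional in 6 libraries and the annotation holds a Phgdh pseudogene, so the level is uncertain; whether the 2 share reads was not tested.

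Psat1 (19:15904678-15947337) encodes phosphoserine aminotransferase, the next enzyme of the pathway. It had 8.52, 4.74 and 3.75 CPM in KO ifetroban ventricles and 4.78 and 3.45 CPM in KO vehicle ventricles, against 3.03 and 2.75 CPM in WT ifetroban ventricles and 2.92 and 1.62 CPM in WT vehicle ventricles. All KO libraries lay above all WT libraries, and KO ifetroban replicate 1, the library whose treatment labels conflict, stood highest. The log2 fold change was 0.92 ± 0.27 (edgeR adjusted p 0.113), and DESeq2 gave an adjusted p of 0.027. Without KO ifetroban replicate 1 it was 0.71, without WT vehicle replicate 1 it was 1.103, and with the slope set as a term it was 0.52 (edgeR adjusted p 0.129). Psat1 overlaps a pseudogene, Gm3329, on the other strand, and the strand setting of the counting was not given in the sources used here.

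Serine is split in mitochondria by serine hydroxymethyltransferase 2, encoded by Shmt2 (10:127517123-127522444), into glycine and a one-carbon unit carried on folate. Shmt2 was the steadiest of the 10 genes, at 37.4, 33.7 and 33.1 CPM in KO ifetroban ventricles and 31.3 and 36.02 CPM in KO vehicle ventricles, against 34.4 and 33.2 CPM in WT ifetroban ventricles and 32.3 and 34.2 CPM in WT vehicle ventricles. The genotypes overlapped throughout, with a log2 fold change of 0.03 ± 0.083 (edgeR adjusted p 0.893). Shmt2 overlaps Ndufa4l2 on the other strand.

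The one-carbon unit is then oxidised by the enzyme of Mthfd2 (6:83305691-83325908), a mitochondrial dehydrogenase and cyclohydrolase that is low in most adult tissues. Mthfd2 had 5.01, 3.69 and 5.33 CPM in KO ifetroban ventricles and 5.69 and 3.98 CPM in KO vehicle ventricles, against 2.87 and 3.46 CPM in WT ifetroban ventricles and 1.85 and 2.59 CPM in WT vehicle ventricles. Every KO library lay above every WT library, the closest pair being 3.69 CPM in KO ifetroban and 3.46 CPM in WT ifetroban. Its log2 fold change of 0.80 ± 0.20 missed the threshold by edgeR (adjusted p 0.0718), passed it by DESeq2 (adjusted p 0.011), and was 0.80 with the slope set as a term (edgeR adjusted p 0.0834). Without WT vehicle replicate 1 it was 0.69. Mthfd2 overlaps a predicted gene, Gm43890, on its own strand.

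Asns (6:7675169-7693254) encodes asparagine synthetase, which makes asparagine from aspartate and glutamine and is among the best studied ATF4 targets. Its level was 3.00, 2.16 and 2.10 CPM in KO ifetroban ventricles and 4.10 and 2.61 CPM in KO vehicle ventricles, against 2.50 and 2.42 CPM in WT ifetroban ventricles and 1.44 and 1.50 CPM in WT vehicle ventricles. Under vehicle the genotypes did not overlap, and under ifetroban they did, with 2 of the 3 KO libraries below both WT libraries. The log2 fold change of KO over WT was 1.19 ± 0.31 under vehicle (edgeR adjusted p 0.305) and -0.03 ± 0.27 under ifetroban (edgeR adjusted p 0.977). The value under vehicle was 0.82 without KO vehicle replicate 1 and 1.48 without KO vehicle replicate 2. Over both treatments it was 0.50 ± 0.27 (edgeR adjusted p 0.391), and 0.38 without WT vehicle replicate 1.

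The 3 transcription factors were among the abundant genes, and their genotype groups overlapped. Atf4 (15:80255184-80257540), the central activator of the response, had 65.6, 65.6 and 50.0 CPM in KO ifetroban ventricles and 62.6 and 56.3 CPM in KO vehicle ventricles, against 50.7 and 55.5 CPM in WT ifetroban ventricles and 68.7 and 46.7 CPM in WT vehicle ventricles. Its highest and lowest values were both in WT vehicle ventricles, and its log2 fold change was 0.12 ± 0.13 (edgeR adjusted p 0.692). The value was 0.26 without WT vehicle replicate 1 and -0.0043 with the slope set as a term.

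Atf5 (7:44812256-44816599), a related factor tied to the mitochondrial unfolded protein response, had 66.0, 61.2 and 68.0 CPM in KO ifetroban ventricles and 74.4 and 59.9 CPM in KO vehicle ventricles, against 57.2 and 60.1 CPM in WT ifetroban ventricles and 57.9 and 55.6 CPM in WT vehicle ventricles. The lowest KO value, 59.9 CPM, fell just under the highest WT value, 60.1 CPM. The log2 fold change was 0.19 ± 0.089 (edgeR adjusted p 0.320). Atf5 overlaps Nup62 and Il4i1 on the other strand and had fractional counts in 4 libraries.

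Ddit3 (10:127290774-127296288), which encodes the pro-apoptotic factor CHOP, had 14.0, 12.8 and 11.8 CPM in KO ifetroban ventricles and 14.1 and 15.3 CPM in KO vehicle ventricles, against 11.6 and 14.9 CPM in WT ifetroban ventricles and 19.0 and 11.4 CPM in WT vehicle ventricles. WT vehicle replicate 1 was the highest library for both Ddit3 and Atf4. The Ddit3 log2 fold change was -0.04 ± 0.15 (edgeR adjusted p 0.915), 0.12 without WT vehicle replicate 1 and -0.20 with the slope set as a term. The gene overlaps Mars and Gm4189 on the other strand.

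Trib3 (2:152337422-152344032), a pseudokinase gene induced by ATF4 and CHOP that feeds back on ATF4, had 2.81, 3.53 and 3.55 CPM in KO ifetroban ventricles and 3.68 and 4.02 CPM in KO vehicle ventricles, against 2.75 and 2.83 CPM in WT ifetroban ventricles and 3.03 and 2.35 CPM in WT vehicle ventricles. KO ifetroban replicate 1 lay among the WT values and the other 4 KO libraries above them. The log2 fold change was 0.37 ± 0.15 (edgeR adjusted p 0.273), and 0.43 without KO ifetroban replicate 1.

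Taking the treatments apart, 0 of the 10 genes passed the edgeR threshold under vehicle, where 0.0515% of all tested genes did, and 0 under ifetroban, where 0.0386% did. DESeq2 called 1 of the 10, Gdf15, in each, against 1.0% of all genes under vehicle and 1.87% under ifetroban. At an unadjusted p under 0.05 by edgeR there were 5 genes under vehicle, against 7.9% of all genes, and 2 under ifetroban, against 9.36% of all genes. Every KO library lay above every WT library in 7 of the 10 genes under vehicle (Gdf15, Asns, Psat1, Phgdh, Mthfd2, Atf5 and Trib3), as in 18.3% of all genes, and in 4 under ifetroban (Gdf15, Psat1, Mthfd2 and Atf5), as in 14.0% of all genes. The median log2 fold change of the 10 was 0.70 under vehicle and 0.22 under ifetroban.

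**Figure D2:**
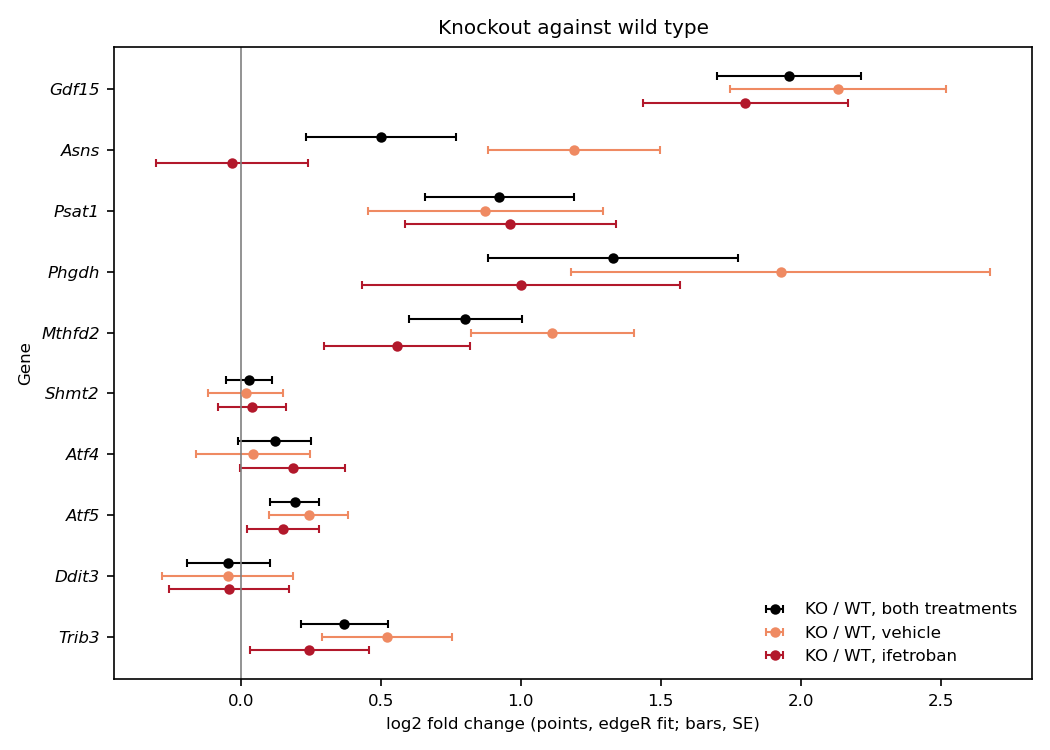
Log2 fold change of KO over WT for each of the 10 genes (horizontal axis; edgeR fit), with bars for the SE, over both treatments, under vehicle alone and under ifetroban alone. Gdf15 lies farthest right at 1.96, 2.13 and 1.80, Asns lies at 1.19 under vehicle and -0.03 under ifetroban, and Shmt2, Atf4 and Ddit3 lie within 0.19 of 0.

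The ifetroban comparisons ask whether blocking the receptor moved these genes within a genotype. In KO ventricles 0 of the 10 genes passed the edgeR threshold, 0 had an unadjusted p under 0.05 and DESeq2 called 0. Over all genes 0.0% passed by either tool, and 3.96% had an unadjusted p under 0.05. Gdf15 averaged 3.93 ± 1.61 CPM in KO ifetroban ventricles (SD, n = 3) and 5.49 ± 0.55 CPM in KO vehicle ventricles (SD, n = 2), a log2 fold change of -0.48 ± 0.31 (edgeR adjusted p 0.862). The groups overlapped, and without KO ifetroban replicate 3 the value was -0.18. Asns had a log2 fold change of -0.48 ± 0.26, its groups also overlapping.

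In 2 genes, Ddit3 and Trib3, every KO ifetroban library lay below every KO vehicle library, as in 9.76% of all genes; the log2 fold changes were -0.19 ± 0.21 for Ddit3 and -0.22 ± 0.21 for Trib3. Each turned positive under 1 alternative, Ddit3 at 0.095 with the slope set as a term and Trib3 at 0.012 with KO ifetroban replicate 1 counted as vehicle. For Psat1 and Phgdh the sign also turned on KO ifetroban replicate 1, the library whose treatment labels conflict. Psat1 had a log2 fold change of 0.45 ± 0.36 with that library as ifetroban, 0.046 without it and -0.38 with it counted as vehicle. Phgdh had 0.57 ± 0.54, 0.16 and -0.34 in the same 3 settings. The remaining 4 genes, Mthfd2, Shmt2, Atf4 and Atf5, lay between -0.05 and 0.05 and changed sign under some alternatives.

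In WT ventricles 0 of the 10 genes passed by edgeR or DESeq2, against 0.0% of all genes, and 1, Asns, had an unadjusted p under 0.05, against 2.25% of all genes. Asns averaged 2.46 CPM in WT ifetroban ventricles and 1.47 CPM in WT vehicle ventricles, a log2 fold change of 0.74 ± 0.31 (edgeR adjusted p 0.881). Both ifetroban libraries lay above both vehicle libraries for Asns, Phgdh and Mthfd2, as in 17.6% of all genes, and below them for Gdf15, as in 13.8% of all genes. The Gdf15 log2 fold change in WT was -0.14 ± 0.42, and those of Phgdh and Mthfd2 were 1.50 ± 0.78 and 0.50 ± 0.30.

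Whether ifetroban acted differently in the 2 genotypes was tested by the interaction, in which 0 of the 10 genes passed by edgeR or DESeq2, against 0.0% of all genes. Asns, with a log2 fold change of -0.48 in KO and 0.74 in WT, had an interaction of -1.22 ± 0.41 (edgeR unadjusted p 0.0143, adjusted p 0.9999). It was the only one of the 10 with an unadjusted p under 0.05, where 1.92% of all genes had one. Leaving out each library in turn gave -1.51 to -0.83, the smallest without KO vehicle replicate 1, which held the highest Asns level. The interaction of Gdf15 was -0.33 ± 0.53.

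**Figure D3:**
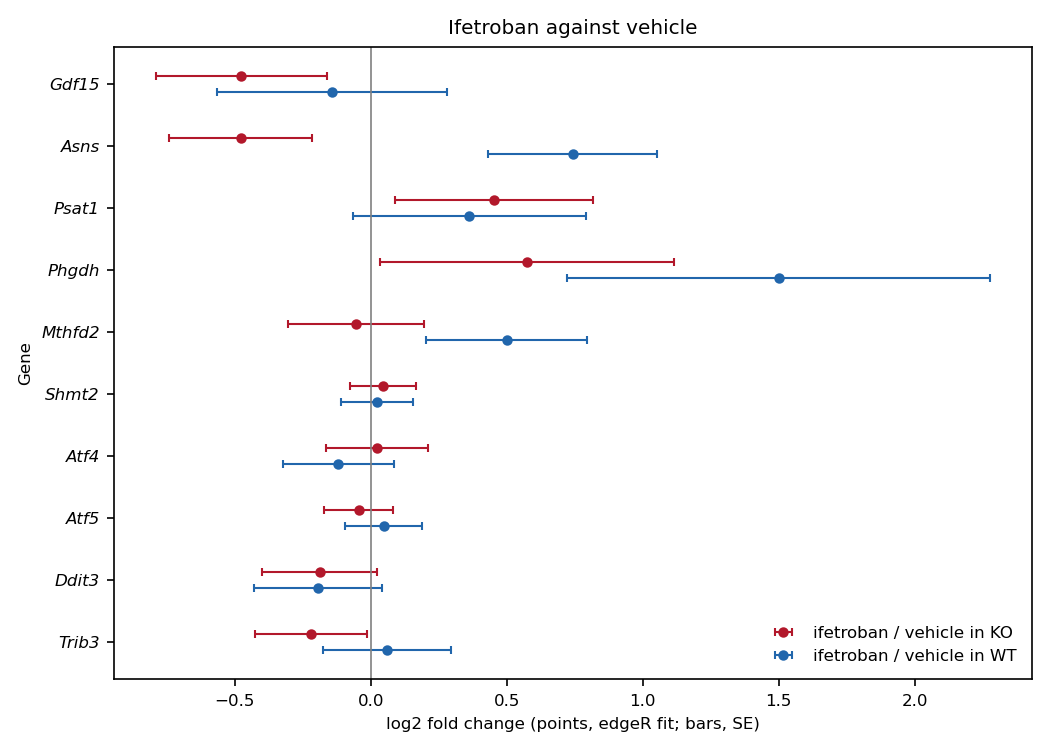
Log2 fold change of ifetroban over vehicle for each of the 10 genes (horizontal axis; edgeR fit), with bars for the SE, in KO and in WT ventricles. Asns lies at -0.48 in KO and 0.74 in WT, Gdf15 lies left of 0 in both, and no gene passed the threshold in either.

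Other genes of the pathway were taken from lists of textbook members. Of 21 tested further ATF4 targets, 1 rose and 1 fell in KO over both treatments by edgeR, against 2.33% of all genes called. At an unadjusted p under 0.05 by edgeR there were 7 of the 21, against 16.1% of all genes. The lists were chosen with earlier results of these data known, so nothing is read from these counts. DESeq2 called 3 of the 21 (Nupr1, Gpt2 and Pycr1), against 5.77% of all genes. Nupr1, a stress-induced chromatin regulator, averaged 4.78 ± 0.78 CPM in KO ventricles (SD, n = 5) and 2.52 ± 0.55 CPM in WT ventricles (SD, n = 4), with a log2 fold change of 0.93 ± 0.19 (edgeR adjusted p 0.0337). The groups did not overlap, with every KO library above every WT library, as in 4.62% of all tested genes. The call was lost without any 1 of KO ifetroban replicate 3, KO vehicle 1 or 2, WT ifetroban 1 or 2, or WT vehicle 2 (edgeR adjusted p 0.0607 to 0.132).

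Gpt2, named because it passed although its change was not among the largest of the list, is an enzyme that makes glutamate and pyruvate from alanine or the reverse. It averaged 28.0 ± 2.0 CPM in KO ventricles (SD, n = 5) and 42.3 ± 6.0 CPM in WT ventricles (SD, n = 4), with a log2 fold change of -0.60 ± 0.11 (edgeR adjusted p 0.0231). Here too the groups did not overlap, with KO below WT, a pattern whose share over all genes is not given here. The call was lost without KO vehicle 1 or 2, WT ifetroban 1 or 2, or WT vehicle 2 (edgeR adjusted p 0.0506 to 0.0902). Pycr1, a mitochondrial enzyme of proline synthesis, had 1.02 ± 0.27 (edgeR adjusted p 0.0906), and Cth, the enzyme that makes cysteine from cystathionine, had -0.70 ± 0.37. The median log2 fold change over the 21 genes was 0.09.

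Of the 77 tested genes of the other lists 0 passed the edgeR threshold over both treatments and 14 had an unadjusted p under 0.05, where 16.1% of all genes had one. DESeq2 called 6 (Dele1, Sdf2l1, Hspa9, Cdkn1a, Ccng1 and Phlda3), against 5.77% of all genes. With the length and GC offset edgeR called 789 of the 15549 tested genes. Among them were 2 mitochondrial chaperones or proteases, 1 eIF2alpha regulator and 1 p53 target. The 19 other serine, glycine and one-carbon enzymes and carriers had a median log2 fold change of -0.04, with Aldh1l1, the cytosolic formyltetrahydrofolate dehydrogenase, at -0.61, Tyms, thymidylate synthase, at 0.51 and Slc25a32, the mitochondrial folate carrier, at -0.38. The 10 eIF2alpha kinases and regulators had a median of -0.08, the farthest from 0 being Dele1 (-0.32), Gcn1 (-0.25) and Eif2ak4 (-0.19), which relay mitochondrial stress or amino acid shortage to eIF2alpha. The 12 cytosolic aminoacyl-tRNA synthetases had a median of 0.03, with Yars at 0.15, Sars at 0.12 and Gars at 0.11. The 9 mitochondrial chaperones and proteases had a median of -0.12 with 0 above 0, Hspa9, the mitochondrial HSP70, standing lowest at -0.22, and the proteins of Afg3l2 (-0.16) and Dnaja3 (-0.15) being an inner membrane protease subunit and a co-chaperone.

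The 18 ER chaperones and members of the ATF6 and XBP1 arms had a median of 0.31 over both treatments, 0.02 under vehicle and 0.44 under ifetroban. By edgeR 7 of them had an unadjusted p under 0.05 over both treatments, against 16.1% of all genes. There were 0 under vehicle, against 7.9%, and 8 under ifetroban, against 9.36%. Sdf2l1, an ER chaperone cofactor, had 1.12 ± 0.37 over both treatments (edgeR adjusted p 0.167), 0.59 under vehicle and 1.59 under ifetroban. Manf, a secreted ER stress protein, had 0.68, -0.05 and 1.31 in the same order. Pdia4, a disulfide isomerase, had 0.54, 0.41 and 0.64. The 8 p53 targets had a median of 0.02 over both treatments, 0.16 under vehicle and -0.11 under ifetroban. Cdkn1a, the cell cycle inhibitor p21 and, like Gdf15, a p53 target, had 0.96 ± 0.32 over both treatments (edgeR adjusted p 0.164). Its value was 0.31 under vehicle and 1.52 under ifetroban. Phlda3 had 0.59 over both treatments, 0.90 under vehicle and 0.35 under ifetroban, and Ccng1 had -0.24 over both treatments. Of the GDF15 receptor genes, the co-receptor gene Ret was tested, at -0.15 over both treatments. Gfral and the hormone gene Fgf21 were not analysed here. In each of the other 5 comparisons 0 of the 98 list genes passed by edgeR. DESeq2 called 3 of them for KO against WT under ifetroban (Gpt2, Sdf2l1 and Cdkn1a), against 1.87% of all genes, and 0 in the others. At an unadjusted p under 0.05 there were 18 under ifetroban, against 9.36% of all genes, 6 under vehicle (7.9%), 8 for ifetroban within KO (3.96%), 4 within WT (2.25%) and 2 for the interaction (1.92%).

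**Figure D4:**
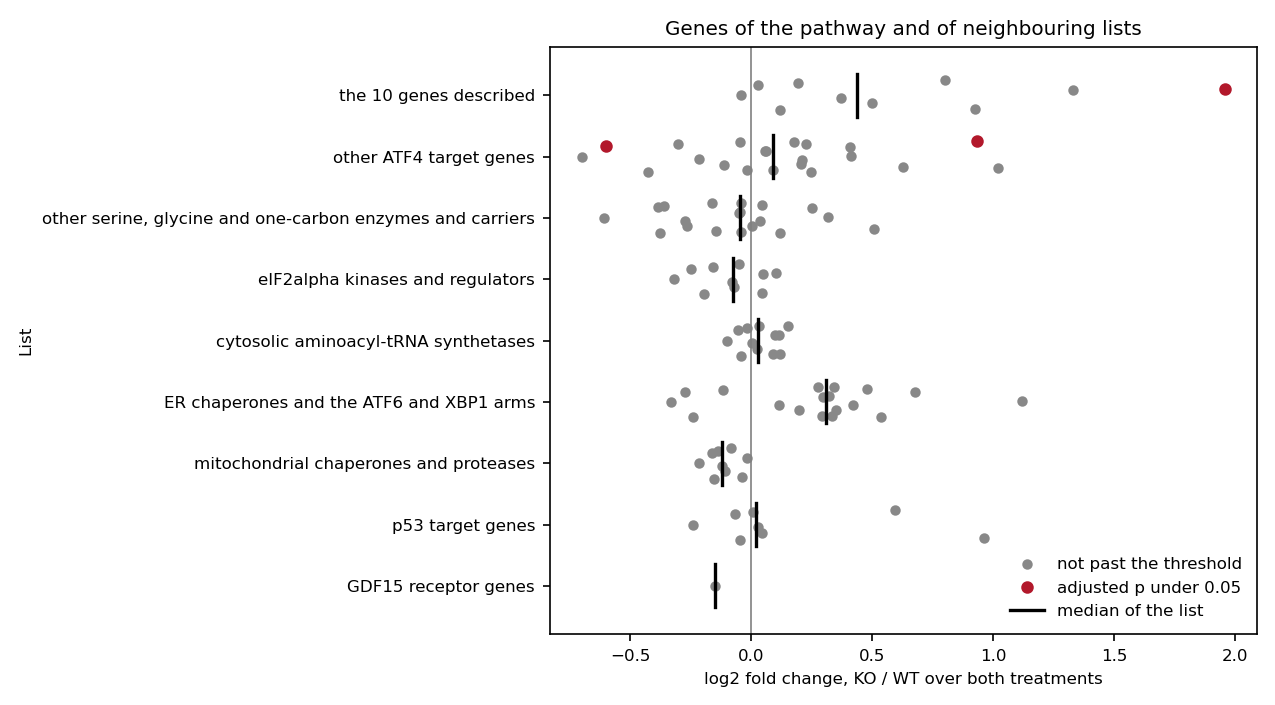
Log2 fold change of KO over WT over both treatments (horizontal axis; edgeR fit) for the 10 genes and for each list of related genes, 1 point a tested gene, with a bar at each list's median and the genes past an adjusted p of 0.05 in red. Gdf15 at 1.96, Nupr1 at 0.93 and Gpt2 at -0.60 are the 3 past the threshold.

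Several macrophage and fibroblast markers were higher in KO ventricles. Of 8 macrophage markers 7 rose in KO over both treatments by edgeR, against 2.33% of all genes called. The summed level of the 8 was 477.0 to 536 CPM in KO libraries and 222 to 311 CPM in WT libraries. Of 8 fibroblast markers 4 rose by edgeR, against the same 2.33%, with sums of 1160 to 1835 CPM in KO libraries and 799 to 989 CPM in WT libraries. Of 8 cardiomyocyte markers 0 passed by edgeR or DESeq2, against 2.33% and 5.77% of all genes. At an unadjusted p under 0.05 by edgeR there was 1, against 16.1%. The sums of the 8 were 47690 to 53320 CPM in KO libraries and 57270 to 59640 CPM in WT libraries. The 3 sums did not overlap between genotypes, no gene of these 3 lists was at 0 in every library, and the part of these cells in the Gdf15, Psat1 and Mthfd2 values was not tested. Of the tested endothelial, smooth muscle, lymphocyte, skeletal muscle and blood cell markers 0 of 21 passed by edgeR, against 2.33% of all genes. An unadjusted p under 0.05 by edgeR was found for 4, against 16.1%. DESeq2 called 1, Acta2 of smooth muscle, against 5.77%. In whole tissue, fewer cells of a type and less RNA per cell cannot be told apart.

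The genes whose level followed Gdf15 most closely over the 9 libraries, out of 12030 ranked by Pearson's r of log2 CPM, were Meox1 (r 0.957, rho 0.817), Marcksl1 (0.953, 0.917), Clec5a (0.951, 0.85), Sptlc2 (0.951, 0.817) and Ly86 (0.944, 0.883). For Asns they were Cnpy4 (r 0.916, rho 0.85), Tpst1 (0.913, 0.967), Ifit1bl1 (0.894, 0.833), Rhod (0.892, 0.883) and Nup107 (0.891, 0.783). These are descriptions over 9 libraries that share the genotype split, with no test.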

How the data were processed

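The authors deposited expected counts per gene for each of 9 libraries of mouse left ventricle RNA (27.6% of values not whole), with coordinates on mm10. Per the submitters' processing notes, bcl2fastq, STAR and Partek were used with the build mm10; versions, the counting rule and strandedness were not given in the sources used here. Groups follow the title and source name of each library.

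Counts were rounded and genes kept with filterByExpr (minimum count 10, about 0.411 CPM), which left 15549. Libraries were scaled by TMM and tested with the edgeR 4.0.16 quasi-likelihood test (R 4.3.3, robust), in an additive model for KO against WT over both treatments and a model of 4 group means otherwise. P-values were adjusted by Benjamini-Hochberg over all tested genes, with a threshold of 0.05. SE is the log2 fold change divided by the root of F. The edgeR fit was checked on simulated counts. Depths of 21510263 to 30182955 counts leave Phgdh at as few as 2.19 expected counts, where counting error is large. Its share in the spread of Phgdh was not tested.

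Alternatives were DESeq2 1.42.0 (Wald test, size factors), no filter, only the groups compared, a replicate block, the other treatment label of KO ifetroban replicate 1, the length slope set as a term, a length and GC offset, and each library left out; the slope sets alone were added after seeing the data. Promoter windows are from RefSeq. The 10 genes and all lists were chosen with earlier results of these data known. Named by rule were the 10 genes, the 3 genes of a list with the largest absolute change over both treatments, Fgf21 and Gfral, and the 5 genes most like Gdf15 or Asns with a mean of at least 1 CPM; Gpt2 was named after its value was seen.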

Additional observations from a re-analysis of the deposited data

How the results depend on the processing

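Of the 10 genes, edgeR called 1 (Gdf15) over both treatments. The count was 3 with DESeq2, 2 with KO ifetroban replicate 1 counted as vehicle (Gdf15, and Mthfd2 at edgeR adjusted p 0.0485), and 1 with each library left out and with the other alternatives, apart from the replicate block below. Gdf15 was called in 16 of 16 alternatives, at a log2 fold change of 1.82 to 2.11 and edgeR adjusted p 0.0011 to 0.0366 with each library left out. Under vehicle the count, 0, was 1 with DESeq2 and 1 in the negative-slope libraries alone (Gdf15, adjusted p 0.0169), where the lone WT library is assumed to vary like the KO ones, and 0 to 1 with each library left out. Under ifetroban it was 1 with DESeq2 and 0 to 1 with each library left out. In the other 3 comparisons it was 0 throughout. Of 1039 values of the 10 genes under alternatives, 975 moved by less than the pooled SD of log2 CPM within the groups compared, and 64 moved further. For KO against WT over both treatments that SD also holds any difference between treatments. Leaving out 1 of 2 libraries can hardly move a group mean by more than this SD. The 975 therefore say little about stability, and the cause of the 64 was not tested.

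With the replicate block, fitted although same-numbered libraries deviated together only between WT vehicle and KO ifetroban (correlations 0.33 and 0.50; -0.062 to 0.081 between the other groups), the count was 2 over both treatments (Gdf15, and Psat1 at edgeR adjusted p 0.015), 1 under vehicle and 1 under ifetroban (Gdf15, edgeR adjusted p 0.0172 and 0.0125).

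Over all genes the 363 calls over both treatments became 896 with DESeq2, 789 with the length and GC offset, 550 with the replicate block, 530 with the relabelled library and 51 (without WT ifetroban replicate 2) to 475 (without WT vehicle replicate 1) with each library left out. The 8 calls under vehicle became 144 with DESeq2, 247 in the negative-slope libraries alone, 118 with the slope term, 56 with the block, 33 with the offset, 28 with the relabelled library, 18 with no filter, 5 with only the groups compared and 2 to 15 with each library left out. The 6 under ifetroban became 290 with DESeq2, 61 in the positive-slope libraries alone, 143 with the slope term, 172 with the block, 59 with the offset, 19 with no filter, 10 with only the groups compared and 2 to 15 with each library left out. The 0 calls for ifetroban in KO became 1 with the block. Among the negative-slope libraries KO ifetroban has only replicate 1, whose treatment labels conflict, so a count of calls there is not given. Under vehicle the negative-slope count likewise rested on 1 WT library. Phgdh had the fewest counts of the 10 genes.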

Other observations

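Among neighbouring stress genes, Sdf2l1 and Cdkn1a did not pass the edgeR threshold over both treatments but were called by DESeq2 over both treatments and under ifetroban. Sdf2l1, an ER chaperone cofactor, had 13.1, 14.6 and 6.14 CPM in KO ifetroban ventricles and 11.4 and 6.14 CPM in KO vehicle ventricles, against 4.603 and 2.87 CPM in WT ifetroban ventricles and 8.36 and 3.40 CPM in WT vehicle ventricles. The WT vehicle library at 8.36 CPM lay above 2 of the 5 KO libraries. Without that library edgeR called 1 gene of the ER list over both treatments, against 0 in the main edgeR fit. Calls over all genes went from 363 to 475 in the same step. The list count does not say which gene was called. Cdkn1a, which encodes p21, had 54.6, 54.3 and 34.6 CPM in KO ifetroban ventricles and 39.1 and 18.8 CPM in KO vehicle ventricles, against 12.7 and 20.7 CPM in WT ifetroban ventricles and 27.9 and 18.9 CPM in WT vehicle ventricles. The KO vehicle library at 18.8 CPM lay within the WT range, and the other 4 KO libraries lay above it.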
